A study of Mus musculus with 4 samples.

Results

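Endogenous PD1+ CD8 T cells of a tumour were set beside CD8 T cells of 1 known receptor that had been transferred into tumour-bearing mice. These are the 2 reference libraries among the 4 of a study of the transcription factor Klf4, and each group is 1 library. The Control library was made from PD1+ CD8+ tumour-infiltrating lymphocytes (TILs) of control (WT) mice, sorted 14 days after inoculation of MC38 cells, a mouse colon carcinoma line. The MigRI library was made from Pmel-I CD8 T cells transduced with the retroviral vector MigRI, which carries GFP and no added gene. Those cells were injected on day 7 into Rag2 KO mice bearing MC38-gp100 tumours, and the GFP+ CD8 T cells in the tumours were sorted on day 15. Both protocols used 300000 tumour cells and between 10000 and 20000 sorted T cells per sample, and both libraries came from SMART-seq v4, a full-length cDNA method for small inputs. The labels give neither the animals' age nor whether animals were pooled.

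Host, tumour line, receptor, transduction, sort and day all differ between the 2 libraries and cannot be told apart. The values below therefore describe these libraries, with no replicate check and no test. They are TPM, transcript abundances per length that are scaled to the same total in every library, so that sequencing depth is not kept. Of 45773 genes present in both tables, 6257 averaged 5 TPM or more over the pair and are described here. Just inside that limit, Cul3 was at 4.47 TPM in the endogenous and 5.53 TPM in the transferred cells, Taok3 at 5.75 and 4.25 TPM and Abcb1a at 9.08 and 0.927 TPM. Just outside it, Trmo was at 2.51 and 7.48 TPM, Spryd4 at 1.40 and 8.59 TPM and Dock2 at 5.69 and 4.30 TPM. A gene near the limit that is low in 1 library must be high in the other, so list counts over the genes that passed do not speak for the genes that did not. Any gene named below that passed with under 5 TPM in 1 library did so only through the other. Through the Control library these include Nfatc1, Csf1, Cx3cr1, Lag3, Gzmk, Il18rap, Ccr2 and Cdkn1b. Through the MigRI library they include Fosl1, Bid, Myc, Il3, Il15ra, Ccnb1, Aurkb and Cd83.

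CD8 T cells that stay in a tumour meet their antigen for days and pass into exhaustion, a state with inhibitory receptors such as PD1, the transcription factor Tox and reduced division and cytokine output. A small progenitor fraction with Tcf7 keeps the pool going, while the larger fraction carries granzymes and chemokines. The endogenous response is polyclonal, since each T cell clone joins its own V, D and J segments. Pmel-I cells instead carry 1 transgenic receptor for a gp100 peptide, built on V beta 13 and V alpha 1, whose segments are named Trbv14 and Trav7. Rag2 is needed to join receptor segments, and mice without it make no T or B cells of their own.

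The receptor segments told the libraries apart. In the MigRI library Trbv14 (mm10 chr6:41135145-41135616, plus strand) stood at 3229 TPM, which was 99.1% of the TPM of the 35 Trbv segments, and it was listed at 0 in the Control library. Of the other segments, 2 reached 1 TPM in the MigRI library, and the higher of them was Trbv13-1 at 24.0 TPM. In the Control library 17 Trbv segments reached 1 TPM. The leading ones were Trbv12-2 at 62.5 TPM (23.1% of the Trbv sum), Trbv13-2 at 58.5 TPM (21.6%) and Trbv16 at 53.6 TPM (19.8%). The effective number of segments, the inverse of the sum of squared shares, was 1.02 in the MigRI library and 6.63 in the Control library. The sequences that carry this contrast are the ends of the V segments, where the joined part of the receptor begins. They are the last 60 coding bases in the GENCODE vM21 transcripts, read 5′ to 3′ on the plus strand of chromosome 6, with the codon of the conserved cysteine in capitals, located by the letters TGTGCNAGC.
Trbv14: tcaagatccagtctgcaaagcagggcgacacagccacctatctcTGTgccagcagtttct
Trbv12-2: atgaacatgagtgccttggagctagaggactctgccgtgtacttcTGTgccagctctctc
Trbv13-2: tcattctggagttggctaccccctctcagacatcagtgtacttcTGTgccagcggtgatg
Trbv16: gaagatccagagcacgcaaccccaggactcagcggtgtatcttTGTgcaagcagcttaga

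**Figure D1:**
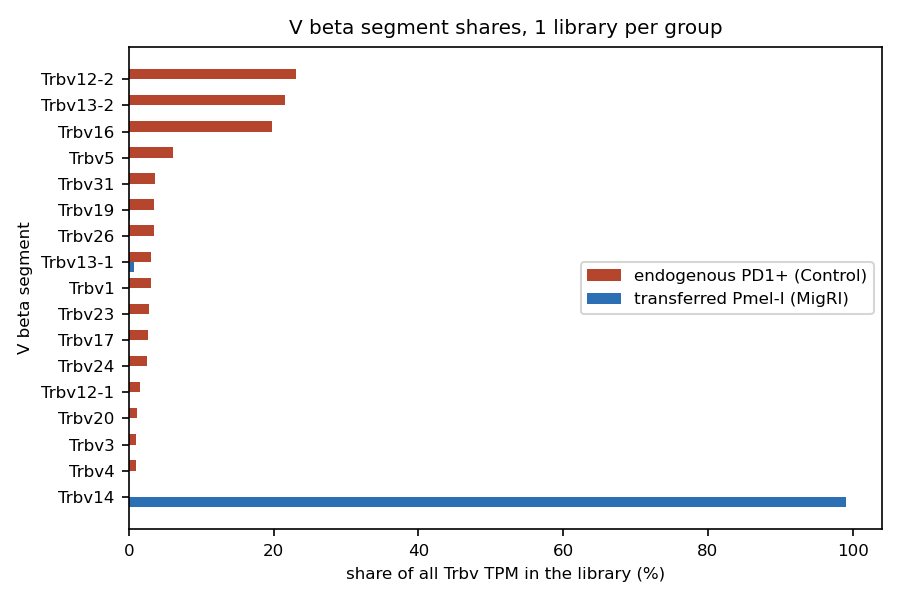
Share of the Trbv TPM in each library (x axis, percent) for the V beta segments at 1% or more in either library (y axis), with 1 bar per library. The MigRI library is nearly all Trbv14 at 99.1%, while the Control library is led by Trbv12-2 at 23.1% and has Trbv14 at 0.

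The alpha chain showed the same contrast with more spread. Segments of the Trav7 family made up 61.0% of the Trav TPM in the MigRI library and 6.39% in the Control library. Trav7d-5 and Trav7n-5, near-identical copies on chromosome 14, were each at 130.6 TPM in the MigRI library and listed at 0 in the Control library, so the split between these copies is uncertain. In the Control library 55 of 128 Trav segments reached 1 TPM, and the highest was Trav14n-3 at 29.5 TPM with 9.06% of the sum. The effective number was 29.5 against 5.58 in the MigRI library. Near-identical copies were counted as separate segments, which raises both effective numbers. Among the J segments, Trbj1-6 held 85.2% of the MigRI Trbj sum and Traj40, at 271.6 TPM, held 55.2% of the Traj sum. Traj40 was listed at 0 in the Control library. The beta segment levels thus match the labels, with many segments in the endogenous cells and nearly 1 in the transferred cells. The alpha chain of the transferred cells was less uniform. In the MigRI library 44 Trav segments, copies counted separately, reached 1 TPM, and Traj12 held 18.9% of the Traj sum beside Traj40.

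Both libraries had all 13 CD8 T cell markers above 0. Cd3e, a signalling chain of the receptor complex, was at 149 TPM in the Control and 108 TPM in the MigRI library. Cd8a was at 136 and 168 TPM and Cd8b1 at 252 and 365 TPM. Cd4 was at 0.813 and 0.108 TPM, and the regulatory T cell factor Foxp3 at 4.64 and 1.34 TPM. Markers of other cells were present in both libraries and mostly higher in the MigRI library. The 15 macrophage and monocyte markers summed to 562 TPM in the endogenous cells and 1815 TPM in the transferred cells, with none at 0, although Csf1r was at 0.867 and 1.18 TPM and Adgre1 at 3.36 and 0.893 TPM. The 6 erythroid markers summed to 7.35 and 974 TPM, with 2 at 0 in the Control library, Alas2 among them, and 1 at 0 in the MigRI library. The 13 fibroblast and endothelium markers summed to 33.4 and 151 TPM, with 2 at 0 in the Control library and none in the MigRI library. The 10 B cell markers summed to 41.7 and 125 TPM, with 5 and 6 at 0, Ms4a1 among them in both. Of the 10, the immunoglobulin constant gene Ighm was at 4.76 and 66.7 TPM and Igkc at 34.6 and 51.5 TPM. The 10 gamma delta T and NK cell markers summed to 18.4 and 54.5 TPM, with 4 and 3 at 0, and the delta chain constant gene Trdc was at 0.338 and 15.8 TPM. The 10 dendritic cell markers summed to 26.3 and 199 TPM, with 5 and 3 at 0, and Batf3, which activated T cells also express, made up 193 of the MigRI sum. Neutrophil markers summed to 29.3 and 29.5 TPM with 5 and 3 of 8 at 0, mast cell markers to 0.278 and 1.91 TPM with 8 and 6 of 9 at 0, and MC38 tumour cell markers to 7.44 and 2.68 TPM. Of the 11 tumour markers, 7 were at 0 in each library, the 5 keratins among them. Fewer cells of a type and less RNA per cell cannot be told apart in such bulk libraries. The part of these other cells in the differences below was not tested.

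The Control library was concentrated in fewer genes. Its 10 highest genes held 21.7% of all TPM against 13.5% in the MigRI library, and, counting down from the highest gene, 91 genes held 50% of the Control TPM and 227 genes that share of the MigRI TPM. Genes at 1 TPM or more numbered 10542 and 11011. Transcripts under 1000 nt held 55.5% of the Control TPM and 39.4% of the MigRI TPM. Most genes had a lower TPM in the Control library, and the median of log2(TPM + 1), Control minus MigRI, was -0.92 over the 6257 genes. Each gene is therefore given as its relative difference, this log2 value minus the median, so that 0 is the median gene and positive values are higher in the Control library. Adding 1 TPM understates the difference of low genes.

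Relative differences of at least 1, a 2-fold distance from the median gene, were found for 1558 genes higher in the Control library (24.9%) and 1167 genes lower (18.7%). These are the shares against which the gene groups below are read. Without subtracting the median, 609 genes passed the 2-fold limit upwards and 2973 downwards, so that 17% of the genes past that fold were higher, against 57.2% with the median subtracted. The middle of the distribution was wide, with the quartiles at -0.78 and 1.00 and 1881 genes (30.1%) within 0.5 of the median gene. The libraries still shared their ordering to a large extent. Across the 6257 genes, which share their library and are not replicates, log2(TPM + 1) had a Pearson correlation of 0.81 and a Spearman correlation of 0.72. Of the 100 highest genes of each library 57 were shared, and of the 500 highest 372 were shared, 74.4% of each list.

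**Figure D2:**
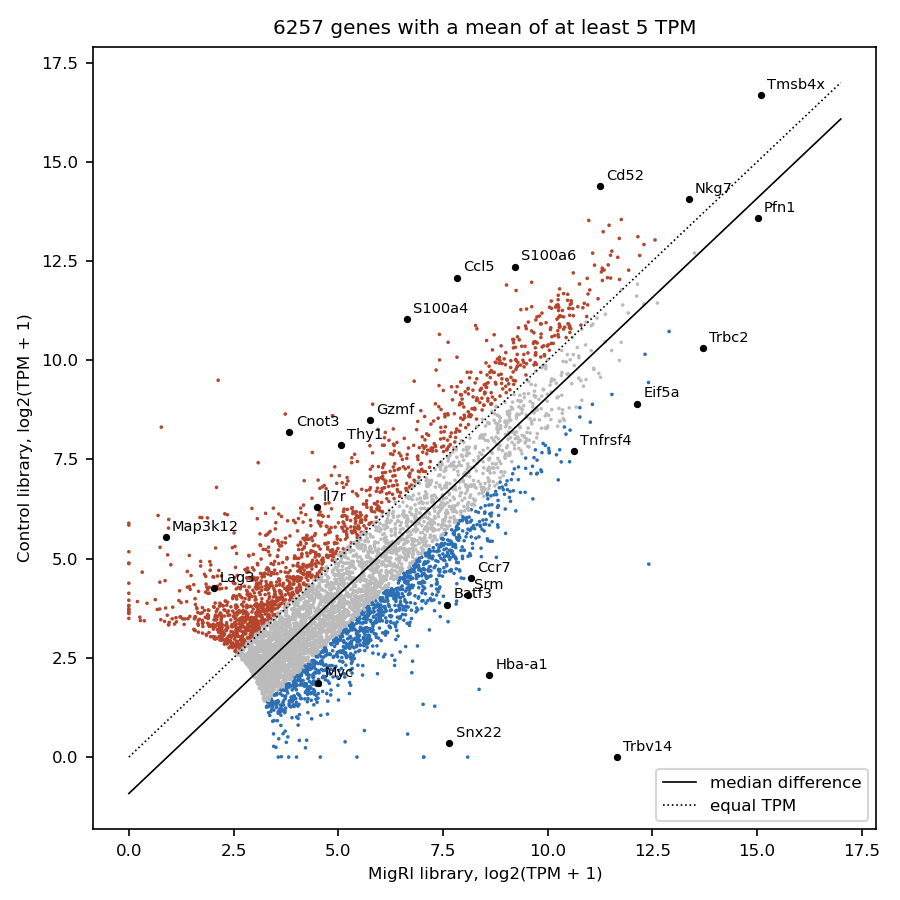
log2(TPM + 1) in the MigRI library (x axis) and the Control library (y axis) for 6257 genes, 1 point per gene, red where the relative difference is at least 1, blue where it is at most -1 and grey between. The solid line marks the median difference of -0.92 and the dotted line equal TPM. Trbv14 lies at 0 on the Control axis, while Ccl5 and S100a4 lie far above the median line.

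Transcript length moved with the difference. In 10 equal groups of genes by their longest annotated transcript, the median relative difference was 1.17 for genes of 12 to 636 nt, -0.62 for genes of 1417 to 1804 nt and 0.52 for genes of 4679 to 21452 nt. In the shortest group 54.5% of genes were at least 2-fold higher in the Control library and 10.8% lower, and in the group of 1417 to 1804 nt 11.8% were higher and 33.6% lower. The lists are for that reason also given by their length-centred difference, which subtracts the median of the gene's own length group instead. For single genes it is given in part, and genes shown without it can change their side of the 2-fold limit on that scale. Examples are Cd8b1 (0.39, length-centred 1.01) and Ubb (-1.26, length-centred -0.64). On that scale 1219 of 5929 genes with a length were at least 2-fold higher (20.6%) and 984 lower (16.6%). Of the genes past the fold, 991 were higher and 760 lower on both scales. Whether length itself, RNA quality or library preparation sets this dependence was not tested.

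**Figure D3:**
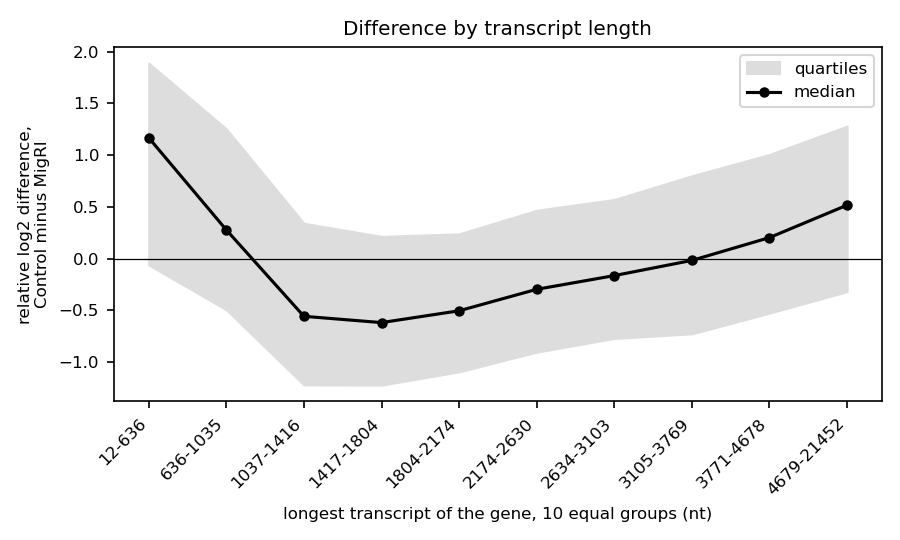
Median (points) and quartiles (grey band) of the relative log2 difference, Control minus MigRI (y axis), in 10 equal groups of genes by longest transcript (x axis, nt). The median is 1.17 in the shortest group, -0.62 in the fourth and 0.52 in the longest.

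Among single genes, the chemokine Ccl5 and the calcium-binding protein S100a4 stood far above the median gene in the endogenous cells. Ccl5 (mm10 chr11:83525778-83530518, minus strand), which attracts T cells and monocytes, was at 4330 TPM and rank 29 in the Control library and at 227 TPM and rank 816 in the MigRI library, a relative difference of 5.17. S100a4 (chr3:90603771-90606045, plus strand) was at 2106 and 98.5 TPM, a relative difference of 5.32. Its neighbour S100a6 was at 5247 and 596 TPM (4.06), and S100a11 at 3999 and 785 TPM (3.27). These S100 genes encode small calcium-binding proteins and had shorter transcripts than most. Length-centred, S100a4 was at 4.15, S100a6 at 3.78, S100a11 at 2.10 and Ccl5 at 4.89. Cd52, a small surface glycoprotein of lymphocytes, was the gene of rank 2 in the Control library at 21484 TPM and of rank 47 in the MigRI library at 2431 TPM. Hcst, the adaptor protein DAP10 that signals for the receptor Klrk1, was at 1609 and 170 TPM (4.16, length-centred 2.99). Ifitm1, an interferon-induced membrane protein, was at 3815 and 517 TPM (3.80, length-centred 3.52).

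At the other end, the haemoglobin genes of red cells were among the lowest relative to the MigRI library. Hba-a1 was at 3.17 TPM in the Control and 388 TPM in the MigRI library, and Hbb-bs at 1.43 and 157 TPM. The alpha globin genes Hba-a1 and Hba-a2 are near-identical, so the counts of each are uncertain. Of genes that T cells express on activation, though not T cells alone, Plaur, the urokinase receptor, was at 9.64 and 196 TPM (-3.29). Srm, which makes the polyamine spermidine, was at 15.9 and 274 TPM (-3.11), Cd83, an activation-induced surface protein, at 4.42 and 80.6 TPM (-2.99), and the AP-1 family factor Batf3 at 13.3 and 193 TPM (-2.84). Eif5a, the translation factor that spermidine modifies, was at 479 TPM and rank 352 in the Control library and at 4530 TPM and rank 16 in the MigRI library (-2.32). Srm, Eif5a and Batf3 were also lower on the length-centred scale, at -2.55, -1.70 and -2.28. The part of macrophages and other cells in the Plaur, Cd83 and Batf3 values was not tested.

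Some of the most different genes overlap another gene. Of the 40 genes at the extremes, 34 were in the annotation and 12 of these overlapped another gene, and the sources used here do not say whether strand was used to assign reads. Snx22, at 0.268 and 200 TPM, overlaps Ppib on the opposite strand, which was at 706 and 1083 TPM. Ccdc38, at 1.51 and 129 TPM, overlaps Snrpf, at 2951 and 1218 TPM. Map3k12, at 45.7 and 0.844 TPM, overlaps Pcbp2, at 25.4 and 140.5 TPM, and Cand2, at 33.2 and 0.903 TPM, overlaps the ribosomal protein gene Rpl32. The values of these overlapping genes are uncertain.

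Tmsb4x, which binds actin monomers, was rank 1 in both libraries at 104611 and 34734 TPM. Nkg7, a protein of cytotoxic granules, was at 17171 and 10580 TPM, and Pfn1, the actin-binding profilin, at 12347 and 33224 TPM. Lgals1, the galectin of activated T cells, held rank 12 in both. The chemokine Ccl4 (11972 and 3463 TPM) and Crip1 (10835 and 2830 TPM) were among the 15 highest of the Control library and not of the MigRI library, and Ubb, Ppia and Fth1 the reverse. Spp1, which encodes osteopontin, moved from rank 102 in the MigRI library at 1472 TPM to rank 687 in the Control library at 173 TPM. Spp1 is also made by tumour macrophages, whose markers summed to 562 TPM in Control and 1815 TPM in MigRI, with Csf1r at 0.867 and 1.18 TPM and Adgre1 at 3.36 and 0.893 TPM. Their part in the Spp1 values was not tested.

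The T cell receptor complex and its signalling proteins were mostly above the median gene in the endogenous cells, apart from the beta constant regions. All 20 listed genes passed the level filter, their median relative difference was 1.14, and 11 were at least 2-fold higher and 1 lower, where 24.9% and 18.7% of all genes were. The length-centred median was 0.90, with 9 higher and none lower. Thy1, the T cell surface glycoprotein, was at 231 TPM in the Control and 32.2 TPM in the MigRI library (3.72, length-centred 4.34). Zap70, the kinase recruited to the receptor, was at 43.3 and 17.4 TPM (2.19), and Cd3d at 2580 and 1230 TPM (1.99). Lat, the membrane adaptor downstream of Zap70, was the 1 lower gene, at 121 and 466 TPM (-1.02, length-centred -0.51). The constant genes lay the other way: Trbc1 was at 694 and 5436 TPM (-2.05) and Trbc2 at 1258 and 13414 TPM (-2.49), while Trac was at 556 and 1295 TPM (-0.30). Trbc1 and Trbc2 are near-identical copies, so reads may be split between them. All receptor alpha and beta segments and constants together were 0.389% of the Control TPM and 3.09% of the MigRI TPM.

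The cytotoxic granule genes split by family member. Of 22 listed, 19 passed the level filter, with a median of 0.47, 7 at least 2-fold higher in the Control library and none lower. Length-centred, the median was 0.97, with 9 higher and 1 lower. Gzmf, a granzyme of long-stimulated T cells, was at 359 and 53.4 TPM (3.65), Gzmk, a granzyme of memory and early exhausted cells, at 26.5 and 4.85 TPM (3.15), and Gzma, a tryptase, at 196.5 and 78.1 TPM (2.24). The pore-forming protein Prf1 was at 58.9 and 31.1 TPM (1.82). Gzmb, the main apoptosis-inducing granzyme, was at 402 and 1003 TPM (-0.40, but 0.22 length-centred), and Gzmc at 199 and 668 TPM (-0.82). Gzmb and Gzmc were thus closer to the median gene, and Gzmc was past the 2-fold distance only length-centred, at -1.10. The granzymes Gzmb to Gzmf are similar in sequence and lie in 1 cluster, so the assignment of reads among them is uncertain.

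Inhibitory receptors did not lie on 1 side. Only 9 of 18 passed the level filter, with a median of 0.49, 3 higher and 1 lower, and a length-centred median of 0.99, 4 higher and none lower. Pdcd1, which encodes PD1, was at 91.2 TPM in the endogenous cells and 123.5 TPM in the transferred cells (0.49, length-centred 0.99), and the Control cells had been sorted on this protein. Lag3, which binds MHC class II, was at 18.0 and 3.06 TPM (3.15, length-centred 3.65), and Havcr2, which encodes Tim-3 and marks terminally exhausted cells, at 22.1 and 6.83 TPM (2.48, length-centred 2.64). Ctla4, the competitor of Cd28 for its ligands, was at 51.5 and 63.5 TPM (0.62, length-centred 1.13). Tigit, another receptor of exhausted cells, was at 9.41 and 23.1 TPM (-0.29). Cd160, a receptor for Tnfrsf14, was at 24.4 and 112 TPM (-1.24, length-centred -0.94). Lag3 and Havcr2 were thus the members farthest on the endogenous side, while Pdcd1 itself did not reach the 2-fold distance on either scale.

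Costimulatory and cytokine receptors as a list stayed near the shares of all genes. Of 19 listed, 16 passed, with a median of 0.32, 4 higher (25%) and 2 lower (12.5%), and length-centred the median was 0.25 with the same counts. Il7r, the receptor chain for the survival cytokine interleukin 7, was at 78.2 and 21.5 TPM (2.74), and Il18rap at 13 and 4.86 TPM (2.18). The costimulatory receptor Icos was at 65.9 and 33.1 TPM (1.89). On the other side, Tnfrsf4, the TNF receptor family member OX40, was at 209 TPM and rank 622 in the Control library and at 1581 TPM and rank 86 in the MigRI library (-2.0, length-centred -1.44). Il15ra was at 1.48 and 12.0 TPM (-1.46). The related TNF receptors Tnfrsf18 and Tnfrsf9 were at 404 and 1304 TPM and at 122 and 325 TPM, at -0.77 and -0.48, and length-centred at -0.21 and 0.02, so that neither was apart from the median gene on that scale.

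**Figure D4:**
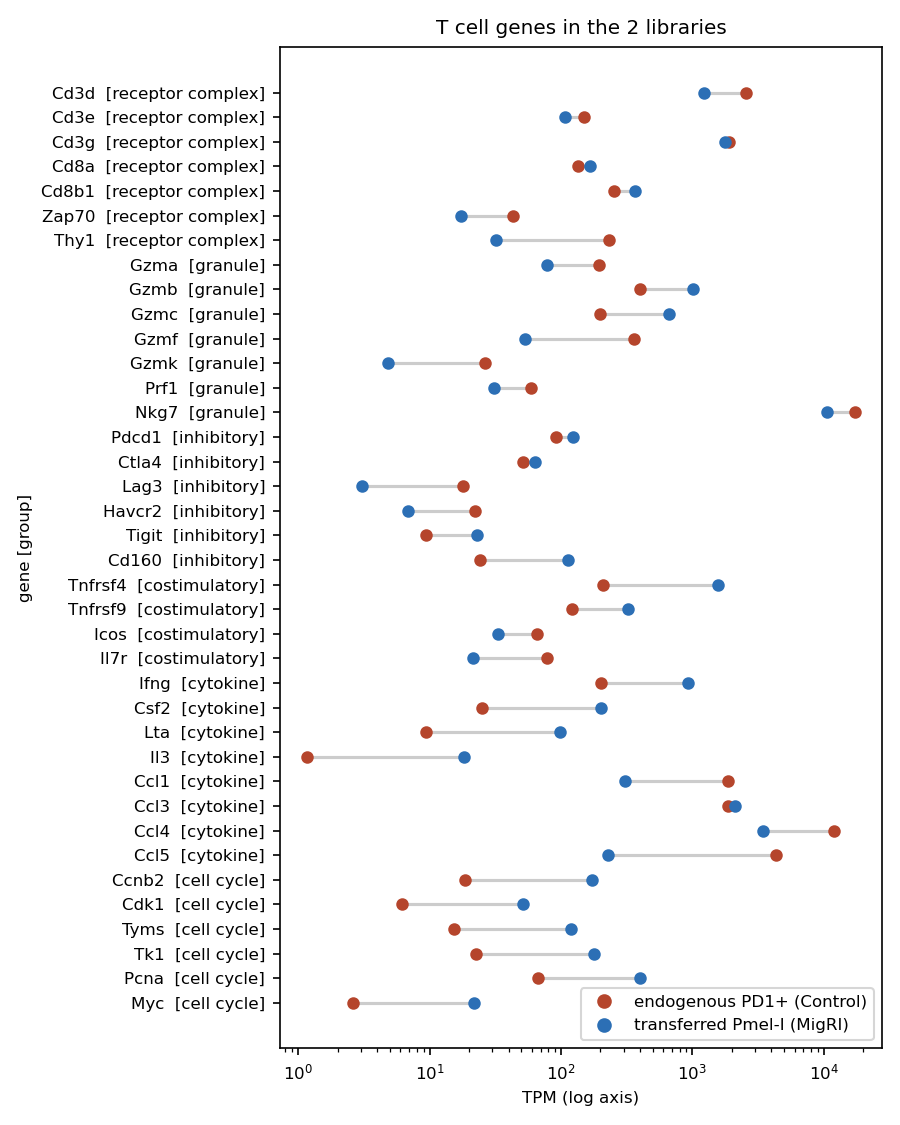
TPM on a log axis (x) of T cell genes (y, group in brackets) in the Control library (red) and the MigRI library (blue), joined by a line, 1 library per group. The cell cycle genes and Tnfrsf4 lie to the left in the Control library, and Ccl5, Thy1, Gzmf and Lag3 to the right.

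The transcription factors of exhausted and effector cells had a median of 0.77 over the 15 of 23 that passed, with 7 higher and 1 lower, and 0.87 length-centred, again with 7 and 1. Nfatc1, the calcium-regulated factor downstream of the receptor, was at 10.6 and 1.33 TPM (3.23), and it passed the level filter only through its Control value. Rbpj, the effector of Notch signalling, was at 21.9 and 6.05 TPM (2.62), Id2, which restrains E proteins and supports effector cells, at 1078 and 460 TPM (2.14), and Hif1a, the oxygen-sensing factor, at 31.8 and 14.7 TPM (1.99). Tox was at 5.35 and 7.89 TPM (0.43), near the median gene. Irf8 was the lower member, at 48.8 and 214 TPM (-1.19), and myeloid cells and B cells express it as well. Of 20 progenitor, memory and homing genes, 8 passed, with a median of 0.71 that was 0.24 length-centred, and 2 were higher and 1 lower. Tcf7 was at 0.988 and 2.80 TPM, under the level filter. Ccr7, the chemokine receptor for lymph node entry, was at 21.7 and 286 TPM (-2.74, length-centred -2.23).

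The AP-1 family was centred on the median gene. Over the 12 of 14 that passed, the median was -0.01 with 1 higher and 2 lower, and 0.13 length-centred with 3 higher and 2 lower. Junb was at 244 and 813 TPM (-0.82), Fos at 61.9 and 149 TPM (-0.34, length-centred 0.16), and Fosl1 at 1.15 and 10.9 TPM (-1.55). The early response and feedback genes, 18 of 21, had a median of 0.35 with 6 higher and 2 lower, and 0.45 length-centred with 6 and 1. Btg2, an antiproliferative gene, was at 478 and 159 TPM (2.5), and Btg1 at 109 and 60.3 TPM (1.76). The transcription factor Myc was at 2.62 and 21.9 TPM (-1.74, length-centred -1.45), and Nfkbia, the NF-kappaB inhibitor, at 178 and 859 TPM (-1.35, length-centred -0.73). Of the Kruppel-like factors, 6 of 17 passed, with a median of 0.63, 1 at least 2-fold higher and none lower, and 0.46 length-centred with 2 higher and none lower. Klf10, a factor induced by TGF-beta, was at 59.1 and 14.7 TPM (2.85). Klf4, the factor the study is about, was at 7.52 TPM in the endogenous cells and 8.69 TPM in the transferred cells, a relative difference of 0.73.

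Cytokines and chemokine ligands reached far on both sides. Of 24 listed, 18 passed, and 6 were at least 2-fold higher and 6 lower, with a median of -0.29. Length-centred, 5 were higher and 6 lower, with a median of 0.02. The higher ones were Ccl5, Csf1, Ccl1, Ccl4, Tgfb1 and Mif. Beside Ccl5, the Ccr8 ligand Ccl1 was at 1879 and 310 TPM (3.52), Ccl4 at a relative difference of 2.71, and the macrophage growth factor Csf1 at 10.9 and 0.889 TPM (3.58). Csf1 passed the level filter only through its Control value. Ccl3 was at 1873 and 2107 TPM (0.75), so the related chemokines Ccl3 and Ccl4 did not stand at the same distance. The lower ones were Lta, Il3, Spp1, Csf2, Penk and Ifng. Ifng, which encodes interferon gamma, was at 203 and 931 TPM (-1.27, length-centred -0.72). The lymphotoxin gene Lta was at 9.35 and 99.1 TPM (-2.36), the haematopoietic growth factors Csf2 at 24.9 and 201 TPM (-2.05) and Il3 at 1.17 and 18.4 TPM (-2.24). Tnf was near the median gene, at 5.38 and 13.6 TPM (-0.28, length-centred 0.34). Il2 was listed at 0 in the Control library and at 4.78 TPM in the MigRI library.

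Of 17 chemokine and sphingosine receptors, 7 passed, with a median of 0.08 (0.70 length-centred), 3 higher and 1 lower. Cx3cr1, the fractalkine receptor of effector cells and of macrophages, was at 14.1 and 1.60 TPM (3.46), and it passed the level filter only through its Control value. Cxcr6, which keeps CD8 T cells beside dendritic cells in tumours, was at 156 and 65.8 TPM (2.15), and the monocyte and T cell receptor Ccr2 at 8.30 and 4.02 TPM (1.81). The 1 lower member was Ccr7. The tissue residency and adhesion list, 12 of 17, had a median of 1.35 with 8 higher and none lower, and 0.91 length-centred with 5 higher and none lower. Rgs2, a brake on G protein signalling, was at 261 and 94.4 TPM (2.37), the integrin chain Itgb7 at 17.4 and 6.79 TPM (2.16) and the adhesion receptor Cd44 at 27.2 and 15.2 TPM (1.72). Cd69, which blocks exit from tissue, was at 34.2 and 70.3 TPM (-0.10). Itgae, the residency integrin CD103, was at 1.03 and 0.232 TPM, under the level filter.

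Genes of the NK cell receptor list were mostly above the median gene. The gamma delta T and NK cell markers summed to 18.4 TPM in Control and 54.5 TPM in MigRI. The part of such cells in these values was not tested. Of 19 listed, 10 passed, with a median of 1.36, 5 higher and 1 lower, and a length-centred median of 1.20, 6 higher and none lower. With genes of under 1000 nt left out the median was 0.44. The lectin-like receptor chains Klrc2, at 66.1 and 23.9 TPM (2.35), and Klrd1, at 398 and 186 TPM (2.01), were higher. The signalling adaptors Fcer1g, at 1018 and 464 TPM (2.05), and Tyrobp, at 433 and 174 TPM (2.23), were higher too. Macrophages also express these adaptors. The macrophage marker sum was 562 and 1815 TPM, with Adgre1 at 3.36 and 0.893 TPM, and its part in these values was not tested. The inhibitory partner Klrc1 was at 119 and 191 TPM (0.24), and Klrk1, the receptor NKG2D, at 115 and 286 TPM (-0.39).

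Genes of DNA replication lay on the side of the transferred cells. Of 26 listed, 25 passed, with a median of -1.19, 14 at least 2-fold lower in the Control library and 1 higher, beside 18.7% and 24.9% of all genes. Length-centred, the median was -0.96, with 11 lower and none higher. Pcna, the sliding clamp of the polymerases, was at 66.4 and 400 TPM (-1.65). The nucleotide enzymes Tk1 and Tyms were at 22.6 and 179 TPM (-2.01) and at 15.4 and 120 TPM (-1.97), and the helicase subunit Gins1 at 5.15 and 55.8 TPM (-2.29). The helicase subunits Mcm2 and Mcm4, by contrast, were at -0.02 and -0.09.

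Mitotic genes were more mixed. Of 28 listed, 23 passed, with a median of -0.81, 10 lower and 1 higher, and -0.47 length-centred with 7 lower and none higher. The mitotic kinase Cdk1 was at 6.22 and 51.0 TPM (-1.93), its partner Ccnb2 at 18.5 and 171 TPM (-2.22), and Ccnb1, the other B cyclin, at 4.28 and 33.5 TPM (-1.79). Aurkb and Birc5, both of the chromosomal passenger complex, were at 4.68 and 35.7 TPM (-1.77) and at 104 and 580 TPM (-1.55). Cks2, which binds Cdk1, was at 213 and 224 TPM (0.85), and the topoisomerase Top2a at 15.7 and 19.5 TPM (0.62). Mki67, the usual marker of cycling cells, was at 3.84 and 4.76 TPM, under the level filter. Among regulators, the CDK inhibitor Cdkn1b was at 12.0 and 3.91 TPM (2.33) and the G1 kinase Cdk4 at 32.2 and 213 TPM (-1.77). Over that list of inhibitors and D cyclins, 12 of 16 passed, with a median of 0.18, 2 higher and 2 lower, and 0.05 length-centred with the same counts.

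Promoters of mitotic genes are known for CCAAT boxes and for the cell cycle homology region (CHR). Shown here are the RefSeq promoters found among the 5 mitotic genes with the largest differences, with or without these letters. In the 250 bases before the start, CCAAT or its reverse ATTGG was present in 15 of the 18 mitotic genes with a RefSeq promoter (83.3%), in 12 of 21 replication genes (57.1%) and in 37.9% of 4363 genes at a mean of at least 5 TPM. The CHR letters TTTGAA, or TTCAAA on the other strand, were in 7 of 18 mitotic genes (38.9%), in 3 of 21 replication genes (14.3%) and in 12.2% of those 4363. The E2F letters GCGGGAA, or TTCCCGC, were in no mitotic promoter of 18, in 5 of 21 replication promoters (23.8%) and in 7.17% of all. Over all genes at least 2-fold lower in the Control library, 42.6% held CCAAT, 12.1% the CHR and 7.85% the E2F letters, and over all that were higher, 37.9%, 14.0% and 6.89%. Over all lower genes the CHR share was thus near that of all genes, and a match of letters is not a binding site. The sequences below are the 150 bases before the start from RefSeq (GRCm38.p6), 5′ to 3′ on the gene's strand, with CCAAT and CHR letters of either strand in capitals. They lie at chr10:69352913-69353062 (minus strand, Cdk1), chr9:70421555-70421704 (minus, Ccnb2), chr13:100786487-100786636 (minus, Ccnb1) and chr11:117849087-117849236 (plus, Birc5). The fifth gene, Aurkb, had no promoter in the source used and was not searched. Cdk1 held both kinds of letters, Ccnb2 and Ccnb1 CCAAT alone, and Birc5 neither in this window.
Cdk1: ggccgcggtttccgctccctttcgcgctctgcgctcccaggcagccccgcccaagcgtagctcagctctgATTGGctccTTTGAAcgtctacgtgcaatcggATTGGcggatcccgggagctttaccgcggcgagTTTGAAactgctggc
Ccnb2: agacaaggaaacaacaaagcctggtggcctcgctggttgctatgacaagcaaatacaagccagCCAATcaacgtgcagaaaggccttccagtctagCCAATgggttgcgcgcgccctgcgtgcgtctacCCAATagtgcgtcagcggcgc
Ccnb1: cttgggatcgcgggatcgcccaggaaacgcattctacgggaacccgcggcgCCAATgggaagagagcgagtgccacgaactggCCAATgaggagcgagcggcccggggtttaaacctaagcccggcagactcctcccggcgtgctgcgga
Birc5: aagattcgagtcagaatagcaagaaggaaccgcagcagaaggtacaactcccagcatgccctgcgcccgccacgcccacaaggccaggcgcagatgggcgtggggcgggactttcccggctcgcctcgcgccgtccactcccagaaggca

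Proteasome subunits were below the median gene in the Control library, apart from Psmb3. All 28 passed, with a median of -1.16, 18 at least 2-fold lower and none higher, and -0.88 length-centred with 10 lower and none higher. Psmc4, an ATPase of the regulatory cap, was at 37.5 and 339 TPM (-2.23), and Psmd7, a cap subunit, at 36.0 and 257 TPM (-1.88). Psmb3, a subunit of the catalytic core, was at 2340 and 3885 TPM (0.19). The MHC class I and immunoproteasome list, 20 of 23, had a median of -0.15 with 1 higher and 2 lower, and 0.06 length-centred with 1 and 1. B2m was at 6391 and 4699 TPM (1.36), the immunoproteasome subunit Psmb8 at 473 and 2147 TPM (-1.26, length-centred -0.76), and Pdia3, a chaperone of peptide loading, at 68.8 and 392 TPM (-1.57).

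Oxidative phosphorylation genes of the nucleus held members far on both sides. All 38 passed, with a median of 1.11, 20 higher and 8 lower, and 0.60 length-centred with 16 higher and 4 lower. Cox6c, a small subunit of cytochrome oxidase, was at 2882 and 1087 TPM (2.33), and Ndufa2, of complex I, at 1996 and 743 TPM (2.34). Uqcrc1, a core subunit of complex III, was at 42.4 and 392 TPM (-2.26), and Sdhb, of succinate dehydrogenase, at 145 and 925 TPM (-1.74). With genes of under 1000 nt left out, the list's median was 0.00, and under quantile normalization it was 0.052. The 15 mitochondrially encoded genes had a median of 1.30 with 8 higher and none lower, and 1.26 length-centred with 9 higher and none lower. COX1 was at 1717 and 1210 TPM (1.42) and ND3 at 125 and 21.9 TPM (3.38). Genes with symbols of cytosolic ribosomal proteins, 88 of 93, had a median of 1.29 with 54 higher and 1 lower, and 0.98 length-centred with 43 higher and 1 lower. The lower one was Rpl7l1 (-1.53). Under quantile normalization the ribosomal median was 0.29. Rps25 was at 11791 and 2022 TPM (3.46), while Rplp0 was at 353 and 1254 TPM (-0.91) and Rps6 at 253 and 755 TPM (-0.66).

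Glycolysis and hypoxia genes, 20 of 23, had a median of -0.41 (-0.12 length-centred) with 5 higher and 4 lower. The lower ones were glycolytic enzymes such as Eno1, at 347 and 2073 TPM (-1.66), and Ldha, at 281 and 1386 TPM (-1.38, length-centred -0.87). The higher ones included Hk2, the first enzyme of the pathway, at 9.30 and 5.18 TPM (1.65), and Higd1a, a hypoxia-induced mitochondrial protein, at 902 and 555 TPM (1.62). Length-centred, 3 were higher and 2 lower, and Eno1 stood at -1.15. Cholesterol synthesis genes, 13 of 20, had a median of -0.71 with 1 higher and 4 lower, and -0.64 length-centred. Fdps, which makes farnesyl diphosphate, was at 34.0 and 282 TPM (-2.09). Atf4 targets and amino acid stress genes, 11 of 20, had a median of -0.69 with 1 higher and 4 lower, and -0.18 length-centred. The serine synthesis enzymes Phgdh and Psat1 were at 10.5 and 84.1 TPM (-1.97) and at 5.74 and 35.4 TPM (-1.51), while the transporter chain Slc3a2 was at 210 and 151 TPM (1.39).

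Interferon-stimulated genes, 25 of 37, had a median of 0.49 with 6 higher and 2 lower, and 0.63 length-centred with 6 and 1. Ifi27l2a was at 6658 and 2157 TPM (2.54), Isg15, a ubiquitin-like protein, at 547 and 464 TPM (1.16, length-centred 0.88), and Usp18, which removes it, at 23 and 170 TPM (-1.92). Genes of the Bcl2 family and death pathways, 15 of 18, had a median of 0.73 with 6 higher and 1 lower, and 0.74 length-centred with 5 and 1. Cflar, which blocks caspase 8, was at 118.5 and 30.2 TPM (2.86), Bcl2 at 21.7 and 13.8 TPM (1.54), and the proapoptotic Bid at 2.03 and 15.4 TPM (-1.52). The TGF-beta list kept 4 of 14 genes, of which Tgfb1 (1.52), Smad7 (1.5) and Pmepa1 (1.16, length-centred 0.96) were higher. Heat shock genes had a median of -0.27 over 12 of 16, with 2 higher and 1 lower, and -0.21 length-centred with 2 higher and none lower. Glucocorticoid-responsive genes had a median of 0.00 over 7 of 11, with Il7r higher and Nfkbia lower, and 0.38 length-centred.

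The actin cytoskeleton list, with all 20 kept, had a median of -0.38 with 3 higher and 2 lower, and 0.02 length-centred. Tmsb4x (2.51) and the myosin light chain Myl6, at 4960 and 2607 TPM (1.85), were higher, and Tagln2, at 96.9 and 439 TPM (-1.25, length-centred -0.63), was lower. Usual housekeeping genes, 14 of 15, had a median of -0.41 with none higher and 2 lower, and -0.37 length-centred with 3 lower, so that they lay slightly below the median gene. Gapdh was at 245 and 708 TPM (-0.61), Ppia at 2782 and 6299 TPM (-0.26), and Hprt at 45.9 and 264 TPM (-1.58). Of the sex-linked genes, Xist was at 3.96 TPM in both libraries and its antisense gene Tsix at 657 and 169 TPM, and reads of the pair cannot be told apart without strand. The Y-linked Eif2s3y was at 2.47 TPM and Ddx3y at 0.449 TPM in the Control library, and both were listed at 0 in the MigRI library.

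**Figure D5:**
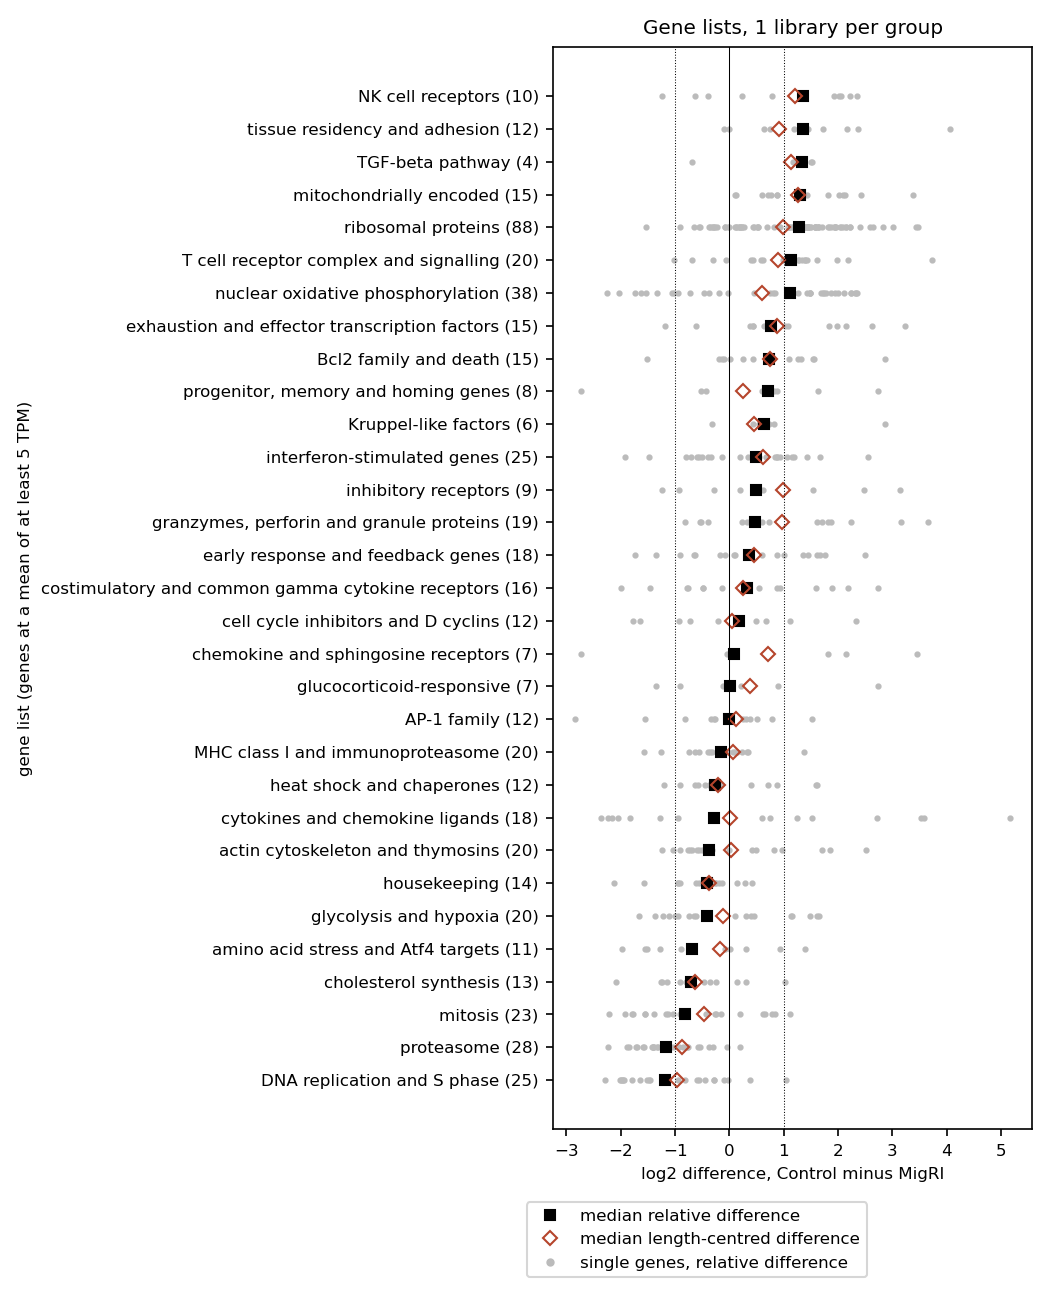
Relative log2 difference, Control minus MigRI (x axis), of single genes (grey), their list median (black squares) and the list median length-centred (open diamonds), for gene lists with at least 3 genes kept (y axis, number kept in brackets). DNA replication and the proteasome lie lowest at -1.19 and -1.16, and NK cell receptors and tissue residency highest at 1.36 and 1.35, with NK cell receptors at 0.44 when genes of under 1000 nt are left out.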

How the data were processed

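The data are TPM values per gene that the authors deposited, 1 table per library. The build mm10 and, among the programs, StringTie, HISAT2, Trimmomatic and edgeR are named in the submitters' processing notes. No version, annotation or strand setting is given in the sources used here. TPM divides by transcript length, so an error in a gene's length or an uneven read cover moves its value, and depth cannot be recovered, so no counting error is given.

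Each table had 45777 entries. Among the Control symbols, 26 had been turned into dates; 22 were restored and 4 rows were left out. Differences were taken as log2(TPM + 1), Control minus MigRI, minus their median over the genes that averaged 5 TPM or more. Lengths were the longest transcript in GENCODE vM21, found for 94.8% of these genes. Ranks were taken within a library over all genes. Fold limits were 2 on the relative scale. No test was made, with 1 library per group. Calculations used Python 3.11.15, numpy 2.4.6 and pandas 2.3.3 and were tested on simulated data.

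The members, lists and rules were chosen with earlier results of these data known. Naming followed rules: up to 5 genes per list by largest difference, the 15 highest of each library and the 20 largest shifts of rank. The 20 highest and 20 lowest genes that reached 20 TPM in either library and were above 0 in both were named too. So were genes at 0 in 1 library and 50 TPM or more in the other, receptor segments and cell-defining genes. Predicted genes, small RNAs, mitochondrial and ribosomal protein genes and immune receptor V, D and J segments were left out of the rules on extremes, levels and ranks. The receptor constant genes were kept. Further members of a list, named for their known role or to show its other side, were chosen after their values were seen. Of 803 list genes, 799 were found. Alternatives were another pseudocount, filter, centring, rescaling and a length limit.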

Additional observations from a re-analysis of the deposited data

How the results depend on the processing

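No paired analysis was possible because each group is 1 library, and no library could be left out. Under the 11 alternatives no list median past the 2-fold limit, and none of the 197 named genes past it, changed direction. Of the 233 named genes that passed the level filter, 144 stayed on their side of the limit in every alternative that gave them a value and 89 crossed it in at least 1. Without median subtraction 609 genes were higher and 2973 lower, and the list medians were 0.22 for the receptor complex, -1.21 for cytokines, 0.43 for residency, 0.44 for NK receptors, -1.73 for mitosis, -1.33 for glycolysis, 0.19 for nuclear oxidative phosphorylation, 0.38 for mitochondrial genes, -1.19 for heat shock, -1.07 for MHC class I, -1.63 for cholesterol, -1.61 for Atf4 targets, -1.30 for actin, -1.33 for housekeeping, 0.41 for TGF-beta and 0.37 for ribosomal proteins, which the missing shift of -0.92 accounts for by construction. For the alternatives that follow the cause was not tested. At a mean of 1 TPM, 2258 genes were lower, and the medians were 0.77 for the receptor complex, 0.97 for residency, 0.73 for nuclear oxidative phosphorylation, 0.92 for mitochondrial genes, 0.80 for TGF-beta and 0.91 for ribosomal proteins. With no filter 3439 genes were lower, and the same lists stood at 0.42, 0.55, 0.38, 0.57, 0.22 and 0.54, with NK receptors at 0.57, mitosis at -1.07, cholesterol at -1.11 and actin at -1.10. At a mean of 10 TPM cholesterol was at -1.04. Length-centred, the receptor complex was at 0.90, residency at 0.91, replication at -0.96, nuclear oxidative phosphorylation at 0.60, the proteasome at -0.88 and ribosomal proteins at 0.98. With genes of at least 1000 nt only, 757 were lower, and exhaustion factors were at 1.10, progenitor genes at 1.01, NK receptors at 0.44, replication at -0.98 and nuclear oxidative phosphorylation at 0.0025. A pseudocount of 5 gave 0.89 for the receptor complex, -0.86 for replication and 0.91 for nuclear oxidative phosphorylation. Quantile normalization gave 0.97 for the receptor complex, 0.052 for nuclear oxidative phosphorylation, 0.99 for mitochondrial genes and 0.29 for ribosomal proteins, and rescaling without the 50 most abundant genes gave 0.78 for nuclear oxidative phosphorylation. All other list medians stayed on their side of the limit. Inside the limit some medians changed sign, while others, such as housekeeping, kept it. Granzymes, at 0.47, stood at -0.45 without median subtraction and at -0.19 with no filter. Cytokines, at -0.29, stood at 0.25 at a mean of 10 TPM. The depth of these TPM libraries is unknown, so low genes carry an error that cannot be stated.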
